A study of Mus musculus with 40 samples.

Results

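The cytosolic ribosomal protein genes encode the protein parts of the ribosome in the cytosol. Members were taken by symbol, as mouse genes whose name starts with Rps or Rpl followed by a number, p or a. Symbols of pseudogenes, of the Rps6 kinases and ending in Rik were left out, and a mean of at least 10 CPM (counts relative to the library's total) over all 40 libraries was required. The rule kept 85 of 93 such symbols, among 57010 gene identifiers in the table, and 300 pseudogene symbols were left out. The 85 comprised 31 proteins of the small subunit, 43 of the large subunit, 3 of the stalk (Rplp0, Rplp1 and Rplp2) and 8 copies or similarly named genes. Just inside the threshold lay Rps19bp1, at a mean of 36.1 CPM, and just outside it Rps3a2, at 8.85 CPM. Rps19bp1 is named for binding Rps19 and is not itself a ribosomal protein. Fau, which also gives rise to a ribosomal protein, and Rack1, which sits on the ribosome, do not match the rule and are described among the related genes.

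Each ribosome holds 1 copy of most of these proteins, so cells make them in matched amounts. Their mRNAs are among the most abundant in growing cells and carry a run of pyrimidines at the 5′ end, the terminal oligopyrimidine (TOP) tract, through which the kinase mTORC1 and the protein Larp1 control their translation and stability. A change in mRNA level is therefore only one of the steps that set how much ribosomal protein is made.

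RNA was taken from macrophages grown from mouse bone marrow in medium conditioned by L929 cells. The mice carried a floxed Otulin gene, either without Cre (WT, Otulin FL/FL) or with Cre recombinase driven by the LysM promoter (KO, OtulinFL/FL LysMCreTg/WT), so all 10 groups share the floxed allele. Otulin is a deubiquitinase that removes linear ubiquitin chains. Cells of both genotypes were sampled untreated (0 h) and after 3, 6, 12 and 24 h in 500 ng/ml of LPS (lipopolysaccharide, ultrapure grade, of Salmonella minnesota), the outer membrane glycolipid to which macrophages respond through Tlr4, with 4 replicates in each group. Since no group had Cre on its own, loss of Otulin and presence of Cre cannot be told apart in any difference between KO and WT. Ages are not stated for the mice. KO replicate 3 and WT replicate 4 were handled as male animals in a check below, so sex may differ between replicates of a genotype. The labels do not say whether each replicate came from its own mouse, so p-values measure only the spread between these samples, which may be technical.

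Library totals ran from 3615155 to 6829303 counts, and 85 of 85 members passed the filter on low counts in every fit. Levels below are scaled CPM, in which each library total is corrected by the TMM method so that most genes centre on no change between libraries. The alternative scale, library totals, divides by all counts. Otulin itself lay at 38.1 to 44.6 scaled CPM in WT and 30.4 to 43.6 in KO at 0 h. It was at 36.4 to 47.5 in WT and 31.4 to 33.45 in KO at 3 h, and at 35.7 to 42.3 and 29.0 to 33.5 at 6 h. At 12 h the ranges were 30.3 to 34.5 in WT and 27.6 to 36.7 in KO, and at 24 h 27.6 to 37.1 in WT and 45.2 to 51.7 in KO. KO thus lay below WT without overlap at 3 and 6 h and above it at 24 h. Otulin was not called at any time (edgeR adjusted p = 0.056 at 3 h, 0.29 at 6 h and 0.070 at 24 h). Which exons the floxed allele loses is not stated, and a tag at the 3′ end does not check a deletion elsewhere in the gene. The 10 macrophage markers summed to between 4100 and 8324 scaled CPM, whereas the 4 B cell markers summed to at most 2.60 (2 of 4 near zero) and the 5 T and NK cell markers to at most 1.99 (4 of 5 near zero).

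The letters around the annotated start show how closely members carry the TOP form, and the starts below belong to members whose levels stood apart after LPS. Each line gives the 15 bases before the annotated start and the first 15 bases from it, from RefSeq on GRCm38.p6, which is not the build of the counts (GRCm39). Capitals mark a run that begins with C and continues with at least 4 C or T, searched on the gene's strand with its first base within 5 bases of the start. No capitals says only that these letters were not found in this window.
Rps6 (ENSMUSG00000028495, chr4:86857353-86857382, minus strand): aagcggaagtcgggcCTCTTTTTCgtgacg
Rps24 (ENSMUSG00000025290, chr14:24490663-24490692, plus strand): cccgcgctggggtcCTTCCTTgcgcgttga
Rps9 (ENSMUSG00000006333, chr7:3704026-3704055, plus strand): accgccttgtctCTCTTTgtctcgggcctg
Rpl24 (ENSMUSG00000098274, chr16:55966260-55966289, plus strand): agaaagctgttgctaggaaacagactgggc
Rpl12 (ENSMUSG00000038900, chr2:32961697-32961726, plus strand): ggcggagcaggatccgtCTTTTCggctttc
Rpl14 (ENSMUSG00000025794, chr9:120571502-120571531, plus strand): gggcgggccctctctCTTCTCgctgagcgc
Rpl28 (ENSMUSG00000030432, chr7:4792950-4792979, plus strand): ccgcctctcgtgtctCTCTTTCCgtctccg
Rpl35 (ENSMUSG00000062997, chr2:39005117-39005146, minus strand): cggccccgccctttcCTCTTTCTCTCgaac
Rpl10a (ENSMUSG00000037805, chr17:28328456-28328485, plus strand, the first of 2 listed starts): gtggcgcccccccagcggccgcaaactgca

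The promoter table held 64 of the 85 members. The run began exactly at the start in 14 of them (21.9%), in 813 of all 27025 genes in the table (3.01%) and in 0 of 67 mitochondrial ribosomal protein genes. It began within 5 bases of the start in 30 members (46.9%), in 21.2% of all genes and in 23.9% of the mitochondrial set. In WT at 24 h of LPS the median log2 change on the TMM scale was -0.55 over the 30 members with the run and -0.70 over the 34 without it. Rpl24 and Rpl10a, the members with the highest and the lowest change at that time, both lacked it in the windows printed above.

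Members together took 4.38% ± 0.216 (SD, n = 4) of all counts in untreated WT macrophages, and this share fell through the LPS course. In WT it was 3.98% ± 0.165 at 3 h, 3.62% ± 0.172 at 6 h, 2.76% ± 0.0444 at 12 h and 2.41% ± 0.113 at 24 h (n = 4 each). Relative to 0 h the difference of mean log2 shares was -0.14 ± 0.05 (SE) at 3 h, -0.27 ± 0.05 at 6 h, -0.66 ± 0.04 at 12 h and -0.86 ± 0.05 at 24 h. The 4 WT libraries of 6, 12 and 24 h all lay below those of 0 h, and those of 3 h overlapped them. KO macrophages followed the same order, from 4.56% ± 0.462 at 0 h through 4.14% ± 0.287, 3.71% ± 0.180 and 2.93% ± 0.414 to 2.63% ± 0.367 at 24 h. In bulk RNA, fewer cells that express these genes and less of their mRNA per cell cannot be told apart. Each share rests on enough counts that its binomial 95% interval (Wilson score) is at most 0.0203 percentage points to either side, which covers counting error only.

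The individual libraries show how far the genotypes were apart. At 0 h the shares were 4.11%, 4.34%, 4.62% and 4.44% in WT and 5.20%, 4.19%, 4.25% and 4.61% in KO. At 24 h they were 2.48%, 2.24%, 2.44% and 2.48% in WT and 2.56%, 2.57%, 2.27% and 3.14% in KO. KO 1 stood highest at 0 h, KO 4 stood highest at 3, 6, 12 and 24 h, and the ranges of the genotypes overlapped at all 5 times.

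**Figure D1:**
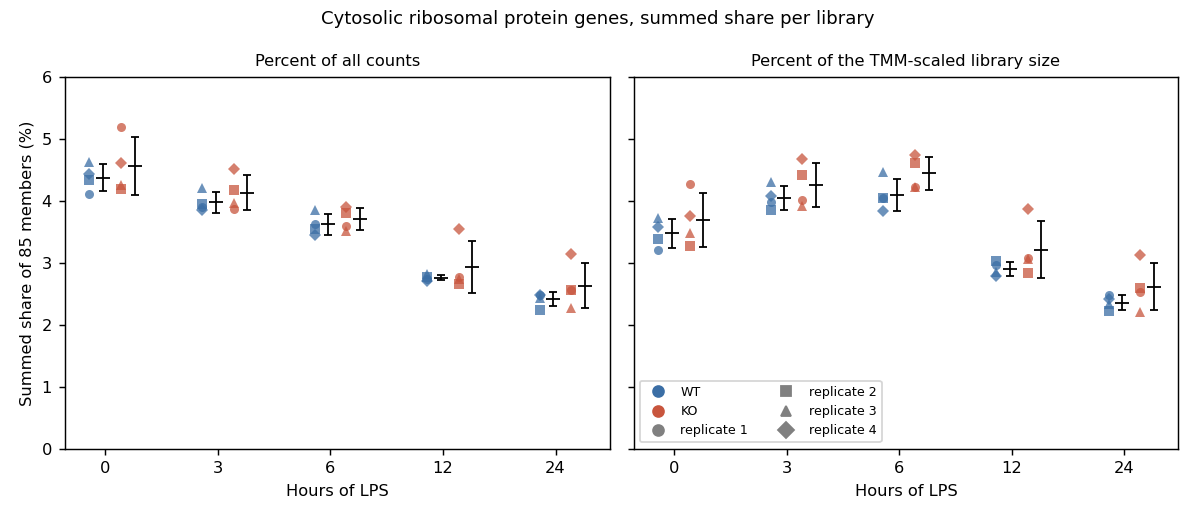
Summed share of the 85 members in each of the 40 libraries (y axis, percent) by hours of LPS (x axis), as percent of all counts on the left and of the TMM-scaled library size on the right. Blue is WT, red is KO, marker shapes are replicates, and black marks are the mean and SD of 4 libraries; on the left the WT mean falls from 4.38% to 2.41%, on the right it goes from 3.48% to 4.10% at 6 h and then to 2.36% at 24 h.

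The direction before 12 h depended on the scale, and the fall at 12 and 24 h did not. The scaled library size was 1.22 to 1.28 times the total in the 8 libraries of 0 h and 0.826 to 0.899 times the total in those of 6 h. As a share of that scaled size the WT members went from 3.48% ± 0.230 at 0 h to 4.06% ± 0.195 at 3 h, 4.10% ± 0.262 at 6 h, 2.91% ± 0.11 at 12 h and 2.36% ± 0.115 at 24 h. The choice of scale moved the median log2 change of all genes against 0 h by 0.30 to 0.55, so the members' early changes are read only against it.

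Single members were tested with edgeR's quasi-likelihood test, with Benjamini-Hochberg adjustment over all genes and a threshold of 0.05. At 3 h in WT, 52 of 85 members were called higher on the TMM scale (26.6% of all genes were) and 1 lower (28.0% of all), whereas on library totals 0 were higher (15.3%) and 35 lower (56.7%). At 6 h in WT the counts were 42 higher (31.0%) and 2 lower (37.1%) by TMM, and 1 higher (17.6%) and 77 lower (63.9%) by library totals. The median log2 change of the 85 in WT was 0.21 at 3 h and 0.17 at 6 h by TMM, beside -0.05 and -0.09 over all genes, and -0.15 and -0.34 by library totals, beside -0.40 and -0.59 over all genes. The members' median thus lay above that of all genes at 3 and 6 h. A change of scale moves all genes alike, so this gap is about the same on either scale by construction. Without WT 1, the count of members higher at 3 h by TMM was 28.

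At 12 h the members had turned down. In WT 60 of 85 were called lower (35.9% of all genes) and 4 higher (32.3%), the latter including Rpl24, Rps24 and Rps9, and library totals gave 83 lower (56.9%) and 0 higher (19.5%). At 24 h in WT 77 were lower (35.4%) and 2 higher (34.5%), Rpl24 and Rps24, with 83 lower (49.2%) and 0 higher (22.7%) by library totals. The median log2 change in WT was -0.38 at 12 h and -0.67 at 24 h by TMM, beside -0.07 and -0.02 over all genes, and -0.78 and -0.97 by library totals. The 6 members not called either way at 24 h in WT by TMM were Rpl41, Rps12l1, Rps27, Rps27rt, Rps29 and Rps9. The 12 h TMM call of Rps24 was lost without WT 1. All contrasts against 0 h share the same untreated libraries.

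In KO macrophages the counts of members called higher at 3 and 6 h by TMM were near the share over all genes, but the medians were close to those of WT. By TMM the median log2 change of the 85 in KO was 0.17 at 3 h and 0.18 at 6 h, beside -0.04 and -0.11 over all genes. Above 0 lay 81 and 72 members, beside 46.4% and 44.7% of all genes. The median SE of the members at 3 h was 0.12 in KO and 0.08 in WT. By TMM 17 of 85 members were higher at 3 h (22.9% of all genes) and 1 lower (25.7%), and 26 were higher at 6 h (28.7%), while library totals gave 0 higher (13.9%) and 6 lower (51.5%) at 3 h and 0 higher (16.3%) and 60 lower (64.6%) at 6 h. At 12 h 48 were lower (34.0%) and 3 higher (30.7%), and at 24 h 69 were lower (33.0%) and 3 higher (32.8%). The 3 higher at both times were Rpl24, Rps24 and Rps9, although on library totals 0 were higher and 79 lower at 12 h (18.3% and 55.3% of all genes), and 0 higher and 81 lower at 24 h (21.1% and 46.9%). The 69 members lower at 24 h in KO were all among the 77 lower in WT (69 of 77). These counts moved with single libraries: at 3 h 2 members were higher without KO 2 and 11 without KO 4, at 6 h 40 were higher without KO 1, and at 12 h 19 were lower without KO 1 and 28 without KO 2. The 12 h call of Rps24 was lost without KO 2 or KO 4, and the 24 h calls of these 3 members are taken up below.

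**Figure D2:**
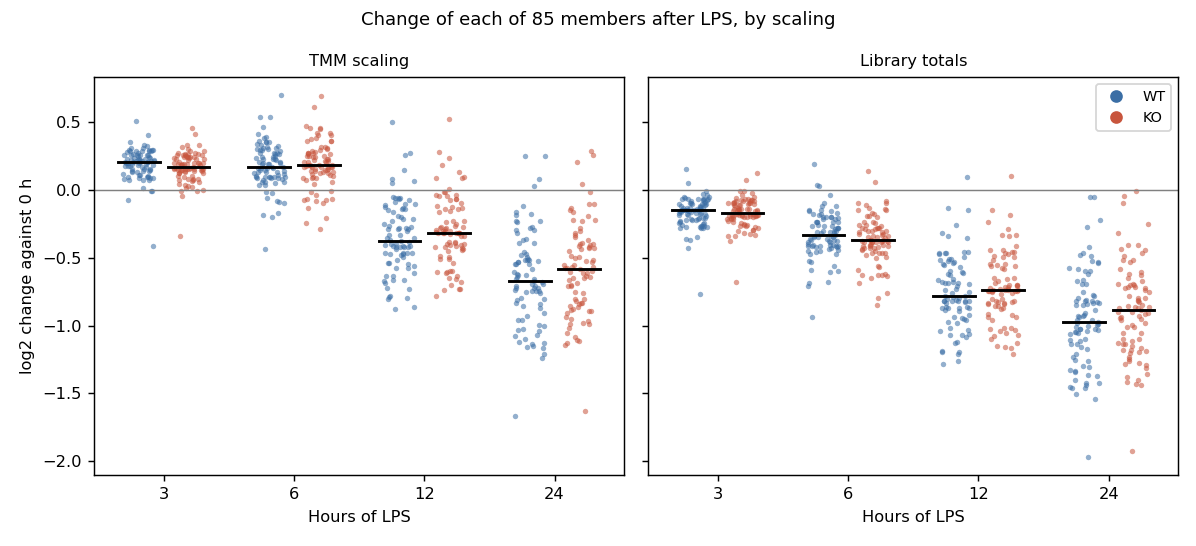
Log2 change of each of the 85 members against 0 h (y axis) at 3, 6, 12 and 24 h of LPS (x axis), with TMM scaling on the left and library totals on the right. Each point is a member (blue WT, red KO) and black bars are medians; at 3 and 6 h most points lie above 0 on the left and below 0 on the right, and at 24 h the WT medians are -0.67 and -0.97.

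In both genotypes the largest step in the median came between 6 and 12 h. Between 3 and 6 h, 1 member rose (20.4% of all genes) and 1 fell (21.9%) in WT by TMM, and 0 rose (19.0%) and 1 fell (21.6%) in KO. The member that fell was Rpl7l1 in both. On library totals this step had 35 members lower in WT (32.3% of all genes) and 15 in KO (36.8%). Between 6 and 12 h, 80 of 85 fell in WT (23.4%) and 67 in KO (22.0%), with 0 higher in either (22.3% and 22.7%), and median log2 changes of -0.52 and -0.49. On library totals 75 fell in WT (17.6%) and 60 in KO (15.9%), and 0 rose in either (28.3% and 29.5%). Between 12 and 24 h a further 61 fell in WT (20.5%) and 35 in KO (18.8%), and 0 and 1 rose (19.1% and 18.1%), the 1 being Rps19bp1, with medians of -0.33 and -0.29. On library totals this step had 45 members lower in WT (15.2% of all genes) and 21 in KO (13.6%), and 1 higher in each (25.9% and 27.1%). The KO count of 35 was 20 without KO 3 and 23 without KO 1. The WT count of 1 member higher and 1 lower between 3 and 6 h became 1 higher and 0 lower without WT 1, and in KO it became 0 and 0 without KO 1, KO 3 or KO 4.

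Both subunits were represented among the members that fell. In WT at 24 h by TMM, 27 of 31 small subunit members were lower with a median log2 change of -0.69, and 41 of 43 large subunit members with a median of -0.71, beside 35.4% of all genes. By library totals 30 of 31 and 42 of 43 were lower, beside 49.2% of all genes. The 3 stalk proteins, which recruit translation factors to the ribosome, were lower too, with a median of -0.49 in WT, and in KO 1 of the 3 was called (Rplp2). Among the anchors, Rpl3, a core protein near the site of peptide bond formation, was at 423, 411, 445 and 432 scaled CPM in WT at 0 h and at 204, 189, 216 and 227 at 24 h. The groups did not overlap, and the log2 change was -1.03 ± 0.07 (edgeR adjusted p = 9.6e-13). Rps6, the small subunit protein phosphorylated downstream of mTORC1, was at 347, 357, 375 and 358 at 0 h, 439, 416, 489 and 465 at 3 h and 239, 187, 205 and 218 at 24 h. It was above its 0 h range at 3 h by TMM (0.33 ± 0.09, edgeR adjusted p = 0.0023) but not by library totals (-0.03), and below it at 24 h on both scales (-0.76 ± 0.09 by TMM, edgeR adjusted p = 2.9e-08).

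Rplp0, the stalk protein often used as a reference gene in PCR, did not stay level. In WT it went from 371, 421, 459 and 438 scaled CPM at 0 h to 285, 293, 248 and 303 at 24 h, with no overlap, a log2 change of -0.58 ± 0.10 and an edgeR adjusted p of 1.4e-05. In KO it went from 557, 367, 389.7 and 388 to 239.9, 337, 299.7 and 397, with overlap and a log2 change of -0.42 ± 0.20 that missed the threshold (edgeR adjusted p = 0.075). Without KO 4 that change was -0.59 with an edgeR adjusted p of 0.0071, and without KO 1 it was -0.14 with an edgeR adjusted p of 0.53. The KO groups were more spread than the WT groups, with KO 1 highest at 0 h and KO 4 highest at 24 h. Rplp2 changed by -0.49 ± 0.07 in WT and -0.39 ± 0.11 in KO (edgeR adjusted p = 8.0e-07 and 0.0027), the latter lost without KO 1 (-0.29, 0.070). Rplp1 changed by -0.28 ± 0.10 in WT (edgeR adjusted p = 0.015), a call lost without WT 2, WT 3 or WT 4. In KO it changed by -0.22 ± 0.23 (edgeR adjusted p = 0.42), and by 0.14 without KO 1 (edgeR adjusted p = 0.61).

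KO 1 and KO 4 were also the highest KO libraries for other members. Rpsa, the small subunit protein that is also known as the laminin receptor, was at 394, 203, 239 and 222 scaled CPM in KO at 0 h, and it changed by -0.87 ± 0.08 in WT and -0.89 ± 0.21 in KO at 24 h (edgeR adjusted p = 5.3e-10 and 0.0012). Without KO 1 the KO change of Rpsa was -0.56 (edgeR adjusted p = 0.024). Rps19, the small subunit protein whose human gene is mutated in Diamond-Blackfan anaemia, was at 577, 292, 302 and 317 in KO at 0 h and at 226, 215, 249.6 and 447 at 12 h. For both genes KO 1 lay above the rest at 0 h, as KO 4 did for Rps19 at 12 h. The 24 h change of Rps19 was -0.67 ± 0.06 in WT and -0.70 ± 0.24 in KO (edgeR adjusted p = 0.016), and the KO call was lost without KO 1 (-0.34, 0.21) or KO 3 (-0.69, 0.069).

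Among the members that fell furthest at 24 h in WT, the naming rule selected Rpl10a, Rpl14 and Rpl28. Rpl10a, a protein of the large subunit's L1 stalk, was at 339.8, 344, 387 and 387 scaled CPM at 0 h, 350.5, 324, 364 and 338 at 6 h and 115, 99.9, 127 and 117 at 24 h in WT. It fell by 1.67 ± 0.08 on the log2 scale by TMM and by 1.97 by library totals (edgeR adjusted p = 4.2e-16 and 8.6e-18). In KO it went from 437, 357, 374 and 437 to 117, 130.5, 99.6 and 173, a log2 change of -1.63 ± 0.13 (edgeR adjusted p = 1.2e-10). All 24 h libraries of both genotypes lay far below all 0 h libraries. Its part of the members' own sum, which no scaling touches, went from 1.05% to 0.486% in WT and from 1.09% to 0.491% in KO.

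Rpl14, a large subunit protein, was at 217, 219, 228 and 213 scaled CPM at 0 h and at 98.8, 88.1, 89.1 and 95.8 at 24 h in WT, a change of -1.24 ± 0.09 (edgeR adjusted p = 4.9e-12). Every 24 h value lay far below every 0 h value, and in KO the change was -1.14 ± 0.20 (edgeR adjusted p = 5.2e-05). Rpl28, also of the large subunit, changed by -1.16 ± 0.11 in WT and -1.11 ± 0.16 in KO. Over the mean log2 levels of the 10 groups the SD was 0.34 for the median member, and among the most variable were Rpl10a (0.71), Rpl28 (0.54) and Rps18 (0.54).

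By TMM a few members were at or above their 0 h level at 24 h. Rps24, a small subunit protein, was at 770.5, 817, 893 and 865 scaled CPM at 0 h, 1120.2, 1169, 1343 and 1010.4 at 6 h and 1116, 999.5, 963 and 904 at 24 h in WT. All 24 h values lay above the 0 h values. The log2 change at 24 h was 0.25 ± 0.08 in WT and 0.25 ± 0.09 in KO by TMM (edgeR adjusted p = 0.011 and 0.022), but -0.05 and -0.04 by library totals. The calls at 24 h were lost without WT 1 (0.15, edgeR adjusted p = 0.16) and without KO 2 (0.20, 0.13) or KO 4 (0.24, 0.055). Its part of the members' sum, which no scaling touches, went from 2.40% to 4.22% in WT and from 2.37% to 4.03% in KO.

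Rpl24, a large subunit protein at the face between the subunits, was at 282, 283, 316 and 295 scaled CPM at 0 h, 463, 493, 528 and 433 at 6 h and 377, 334, 371 and 322 at 24 h in WT. The 0 h values were the lowest of the course. By TMM the log2 change was 0.51 ± 0.08 at 3 h, 0.70 ± 0.08 at 6 h and 0.25 ± 0.08 at 24 h in WT (edgeR adjusted p = 5.6e-06, 2.3e-08 and 0.0072), and by library totals it was 0.15, 0.19 and -0.05, of which only the 6 h value passed (adjusted p = 0.021). In KO the TMM changes were 0.46 ± 0.12, 0.69 ± 0.12 and 0.29 ± 0.12. The 24 h calls were lost without WT 1 (0.20, edgeR adjusted p = 0.053), without KO 2 (0.21, 0.23) and without KO 4 (0.19, 0.13).

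Rps9, a small subunit protein of the decoding region, was at 797, 883, 981 and 917 scaled CPM at 0 h, 1172, 1273, 1450.1 and 1311 at 6 h and 952, 902, 903 and 1033 at 24 h in WT. The 6 h and 0 h groups did not overlap, and the 24 h and 0 h groups did. The log2 change was 0.53 ± 0.08 at 6 h by TMM (edgeR adjusted p = 1.0e-06) and 0.03 by library totals, and 0.08 ± 0.08 at 24 h by TMM (adjusted p = 0.35) and -0.22 by library totals (adjusted p = 0.0041). In KO the 24 h TMM change was 0.20 ± 0.09 (edgeR adjusted p = 0.046), a call that was lost without KO 1, KO 2 or KO 4 (0.17 to 0.20, adjusted p = 0.11 to 0.20). Its part of the members' sum went from 2.57% to 4.01% in WT. Rpl41, a very short large subunit protein, changed by 0.03 ± 0.07 at 24 h in WT by TMM (edgeR adjusted p = 0.74) and by -0.27 by library totals (0.00057). The 3 members that varied least over the 10 groups were Rpl41, Rps19bp1 and Rps24, with SDs of 0.15, 0.15 and 0.16 on the log2 scale.

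Rpl12, a large subunit protein at the base of the stalk, was the exception at the start of the course. It was at 65.6, 70.1, 65.9 and 66.7 scaled CPM at 0 h, 49.8, 53.5, 55.7 and 42.5 at 3 h and 43.5, 48.1, 48.7 and 52.5 at 24 h in WT. Its 3 h libraries already lay below all 0 h libraries and it then stayed there. The log2 change was -0.41 ± 0.12 at 3 h and -0.48 ± 0.12 at 24 h by TMM in WT (edgeR adjusted p = 0.0039 and 0.00073), and -0.77 and -0.78 by library totals. By TMM it was the only member called lower at 3 h, in WT and in KO (-0.34 ± 0.11, edgeR adjusted p = 0.011), and the KO call was lost without KO 1 (-0.30, 0.069) or KO 2 (-0.28, 0.071). By library totals 35 members were lower in WT at that time and 6 in KO.

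**Figure D3:**
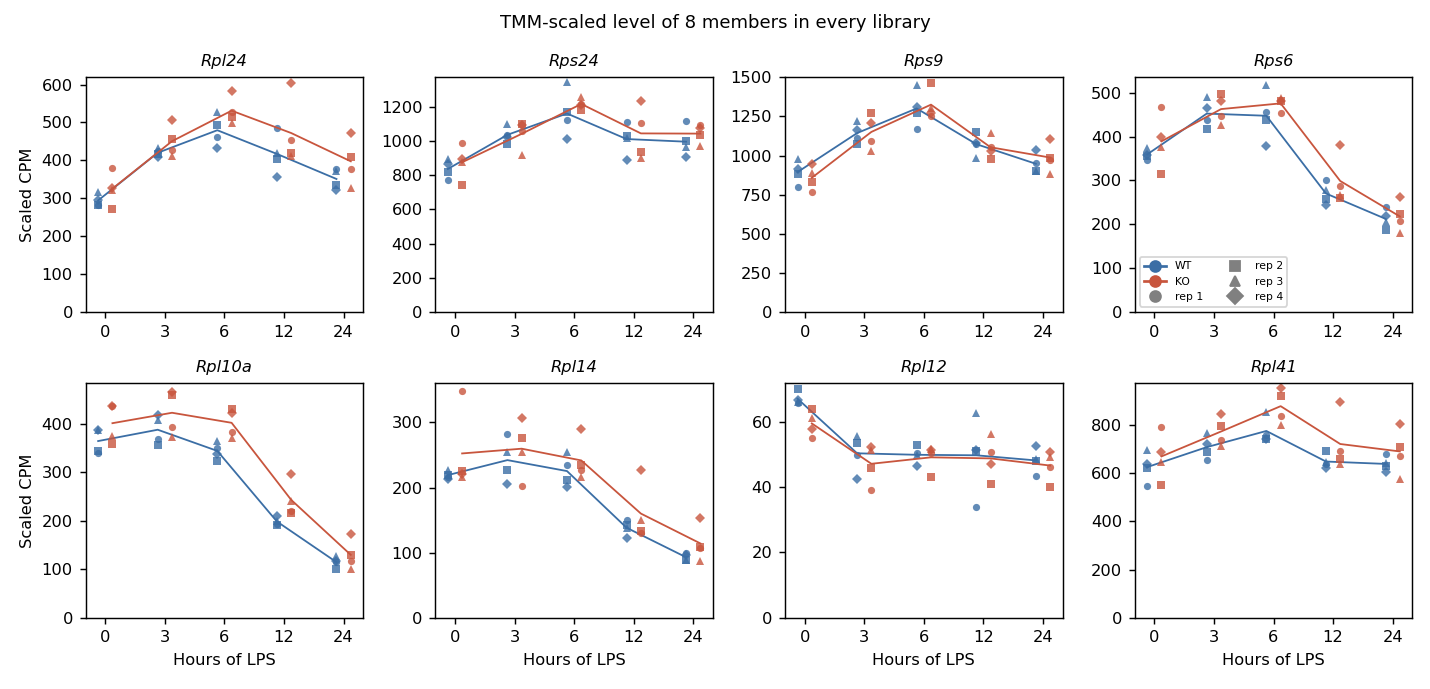
Scaled CPM (y axis, TMM scale, from 0) of 8 members in each of the 40 libraries by hours of LPS (x axis), blue WT and red KO with lines through the means of 4 and marker shapes for replicates. Rpl10a and Rpl14 fall between 6 and 12 h and again by 24 h, Rpl24, Rps24, Rps9 and Rpl41 stay near or above their 0 h level on this scale (by library totals their 24 h log2 changes in WT are -0.05, -0.05, -0.22 and -0.27), and Rpl12 is lower from 3 h on.

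Copies with distinct names were read beside their parent genes. Rps27 and Rps27rt, which share 88.4% of the 50-base words of the Rps27rt 3′ tail and so cannot be counted apart with certainty, were 2 of the 6 members not called at 24 h in WT (-0.17 ± 0.14 and -0.18 ± 0.09 by TMM). On library totals both were lower (-0.46 and -0.48), and without WT 1 or WT 4 Rps27rt was called lower by TMM as well (-0.25 and -0.21, edgeR adjusted p = 0.025 and 0.046). Rps27l, the copy known as a target of p53, was at 119, 118, 135 and 144 scaled CPM at 0 h and at 103, 89.4, 82.6 and 79.7 at 24 h in WT. It was lower without overlap, by a log2 change of -0.55 ± 0.09 (edgeR adjusted p = 1.2e-05). Rpl22 and its copy Rpl22l1 were both lower at 24 h in WT, by -0.72 ± 0.07 and -0.52 ± 0.09, as were Rpl36a and Rpl36al (-0.99 ± 0.08 and -0.69 ± 0.10) and Rpl7 and Rpl7l1 (-0.53 ± 0.07 and -0.39 ± 0.08) and Rpl37 and Rpl37rt (-0.71 ± 0.07 and -1.12 ± 0.10). Rps12l1, named for its likeness to Rps12, was not called at 24 h by TMM (-0.23 ± 0.12, adjusted p = 0.10 by edgeR), while Rps12 was lower (-0.51 ± 0.08). Without WT 1, Rps12l1 was lower too (-0.29, edgeR adjusted p = 0.046).

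Because ribosomal protein genes have many processed copies in the genome, tags can be shared with pseudogenes. In the last 300 bases of annotated transcripts, 12 members shared under 10% of their 50-base words with other genes, 68 shared 10% to 90% and 3 shared 90% or more (Rpl36a, Rpl35 and Rpl10), with 2 members not found in the annotation used. All 12 with little sharing were lower in WT at 24 h, with a median log2 change by TMM of -0.58, as were 61 of the 68 (median -0.66) and the 3. Rpl10 had a mean of 482 CPM and the pseudogene that shares its tail 413 CPM, so tags from the shared stretch could come from either. The summed share of the left-out pseudogene symbols moved the same way as the members, from 0.321% ± 0.0270 of counts at 0 h to 0.158% ± 0.0114 at 24 h in WT.

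No member (0 of 85) was called between KO and WT at any of the 5 times by edgeR or by DESeq2. At an unadjusted p under 0.05 there were 1 member at 0 h, 4 at 3 h, 8 at 6 h, 4 at 12 h and 14 at 24 h, or 1.18%, 4.71%, 9.41%, 4.71% and 16.5% of the 85, beside 7.67%, 11.7%, 12.0%, 7.72% and 7.46% of all genes. The members' share was thus below that of all genes at 0, 3, 6 and 12 h and above it at 24 h, where the count of 14 became 3 without WT 2, 4 without KO 4, 5 without WT 3, 7 without WT 4 or KO 1 and 53 without KO 3. The share of all genes called by edgeR was 0%, 0.362%, 0.837%, 0.0371% and 0.0539% higher and 0%, 0.326%, 0.171%, 0.00927% and 0.0270% lower. The differences were small and mostly positive, with medians of 0.08, 0.08, 0.10, 0.14 and 0.16 in log2 (KO minus WT) and 75, 82, 81, 81 and 79 of 85 members above 0, compared with 47.9% to 51.7% of all genes. By library totals the medians were 0.07, 0.06, 0.03, 0.10 and 0.14. These medians moved with single libraries: without KO 4 the TMM medians at 3, 6, 12 and 24 h were 0.02, 0.06, 0.02 and 0.05, and without KO 1 the median at 0 h was 0.00 with 47 members above 0. Testing all genes with any count, without the filter on low counts, called 2 members higher in KO at 3 h (0.700% of all genes) and 3 at 24 h (0.475%).

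**Figure D4:**
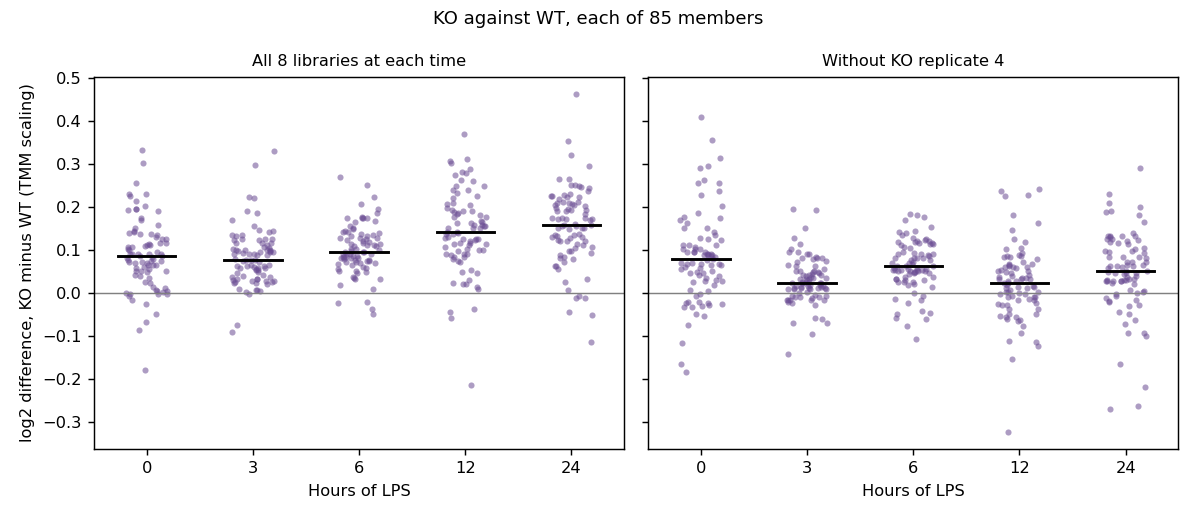
Log2 difference between KO and WT (y axis, TMM scale) of each of the 85 members at each time (x axis, hours of LPS), with all 8 libraries of a time on the left and without KO 4 on the right; black bars are medians. The medians of 0.08 to 0.16 on the left become 0.02 to 0.08 on the right.

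Few members separated the genotypes library by library. The 4 KO values all lay above the 4 WT values for 0 members at 0 and 3 h, 2 at 6 h, 6 at 12 h and 1 at 24 h, against 2.63%, 3.26%, 5.07%, 3.28% and 2.43% of all genes. As a share of the 85 this was above that of all genes at 12 h and below it at 0, 3, 6 and 24 h. At 6 h these were Rpl10a and Rpl39, at 12 h Rpl10a, Rpl13a, Rpl21, Rpl36a, Rps15 and Rps7, and at 24 h Rps19bp1. Rpl10a differed by 0.21 ± 0.07 at 6 h and 0.27 ± 0.11 at 12 h (edgeR adjusted p = 0.23 and 0.58). Rpl12 was the only member with all KO values below all WT values, at 0 h (2.38% of all genes), at 55.2 to 63.8 scaled CPM in KO and 65.6 to 70.1 in WT (-0.18 ± 0.08, edgeR adjusted p = 0.60). It was also among the 3 lowest differences at the other 4 times, between -0.09 and -0.04.

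Rpl35 and Rpl36, both large subunit proteins, recurred among the 3 highest differences, Rpl36 at 0, 3, 6 and 24 h and Rpl35 at 3, 12 and 24 h. At 0 h Rpl35 was instead among the 3 lowest, at -0.18 to -0.001 with 1 replicate left out at a time. Rpl35 was at 39.9, 34.8, 37.8 and 27.9 scaled CPM in WT and 51.1, 44.8, 33.2 and 64.5 in KO at 24 h. The groups overlapped through KO 3, and the log2 difference was 0.46 ± 0.18 (edgeR adjusted p = 0.57). Without KO 4 it was 0.29 and without KO 3 it was 0.60 (edgeR adjusted p = 0.67 and 0.15). Rpl36 lay at 66.0 to 78.1 in WT and 71.1 to 113.8 in KO at 24 h, a difference of 0.35 ± 0.12 (edgeR adjusted p = 0.47). With no filter on low counts, edgeR called Rpl35 and Rpl36 higher in KO at 3 h (adjusted p = 0.012 and 0.014) and at 24 h (adjusted p = 0.013 and 0.043). Rpl35 shares 96.0% of the words in its 3′ tail with another gene model whose mean was 352 CPM, against 66.5 for Rpl35 itself, so its tags are of uncertain origin.

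The response to LPS was compared between genotypes by an interaction test. The number of members called was 0 at each of the 4 times by edgeR and by DESeq2 (at most 0.00818% of all genes), and 1, 0, 0 and 1 members had an unadjusted p under 0.05, beside 2.81%, 4.37%, 3.26% and 3.88% of all genes. Both were Rpl35, with a KO response 0.42 ± 0.20 above the WT response at 3 h and 0.54 ± 0.24 above it at 24 h on the log2 scale (edgeR adjusted p = 1.0 at both). Within each genotype Rpl35 changed by -1.15 ± 0.20 in WT and -0.60 ± 0.17 in KO at 24 h (edgeR adjusted p = 4.0e-05 and 0.0041). Its KO difference at 0 h, among the 3 lowest, enters both interaction values.

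Related genes were read from lists chosen with earlier results of these data known. Of 20 TOP translation factors and ribosome-linked genes, 17 were lower (35.4% of all genes) and 0 higher (34.5%) in WT at 24 h by TMM (median log2 change -0.52), and 20 were lower by library totals (49.2%). Rack1, a scaffold on the small subunit, changed by -1.01 ± 0.07, and Fau, which encodes a ribosomal protein fused to a ubiquitin-like domain, by -0.44 ± 0.07. At 3 h 11 of the 20 were higher (26.6% of all genes) and 2 lower (28.0%) by TMM, with 1 higher (15.3%) and 9 lower (56.7%) by library totals.

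Ribosome biogenesis factors were lower already at 6 h on both scales. Of 46, 35 were lower in WT at 6 h by TMM (37.1% of all genes) and 45 by library totals (63.9%). Their medians at 6 h were -0.94 and -1.44, beside -0.09 and -0.59 over all genes. At that time 42 of 85 ribosomal protein members were called higher by TMM (31.0% of all genes) and 77 lower by library totals (63.9%). At 24 h 45 of the 46 were lower by TMM (35.4% of all genes, median -1.26). Dkc1, the pseudouridine synthase of box H/ACA particles, changed by -2.62 ± 0.14 at 6 h, Gnl3, a nucleolar GTPase, by -2.52 ± 0.10, and Polr1b, a subunit of RNA polymerase I, by -2.56 ± 0.47. Myc, a transcription factor known to drive ribosome production, went from 17.3 ± 3.00 scaled CPM at 0 h to 3.64 ± 0.942 at 3 h and 2.05 ± 1.07 at 6 h in WT (SD, n = 4). Mxd1, of the Myc network, changed by 5.32 ± 0.16 on the log2 scale at 6 h. Mnt and Mxd4, of the same network, went the other way at that time, by -2.54 ± 0.15 and -2.47 ± 0.14. Of 9 measured genes of the Myc network 4 were higher (31.0% of all genes) and 5 lower (37.1%) at 6 h by TMM, and 2 (17.6%) and 6 (63.9%) by library totals.

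Other parts of the translation machinery held members called in both directions. Of 25 initiation factors 6 were higher (34.5% of all genes) and 16 lower (35.4%) in WT at 24 h by TMM (median -0.26), and 1 higher (22.7%) and 19 lower (49.2%) by library totals. Eif6, an anti-association factor of the large subunit, changed by 1.09 ± 0.09 at 6 h, and Eif4a2, a helicase, by -0.90 ± 0.14. Of 22 measured mTORC1 and TOP regulators 5 were higher (31.0% of all genes) and 15 lower (37.1%) at 6 h by TMM (median -0.59), and 1 (17.6%) and 18 (63.9%) by library totals. Among them by TMM were Larp1 at 1.56 ± 0.09 and Sesn1, an mTORC1 inhibitor, at -4.06 ± 0.20. The 76 mitochondrial ribosomal proteins, which serve the separate ribosome of mitochondria, had 21 higher (34.5% of all genes) and 30 lower (35.4%) at 24 h by TMM (median -0.12, beside -0.02 over all genes). By library totals 9 were higher (22.7%) and 47 lower (49.2%, median -0.42, beside -0.32 over all genes).

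**Figure D5:**
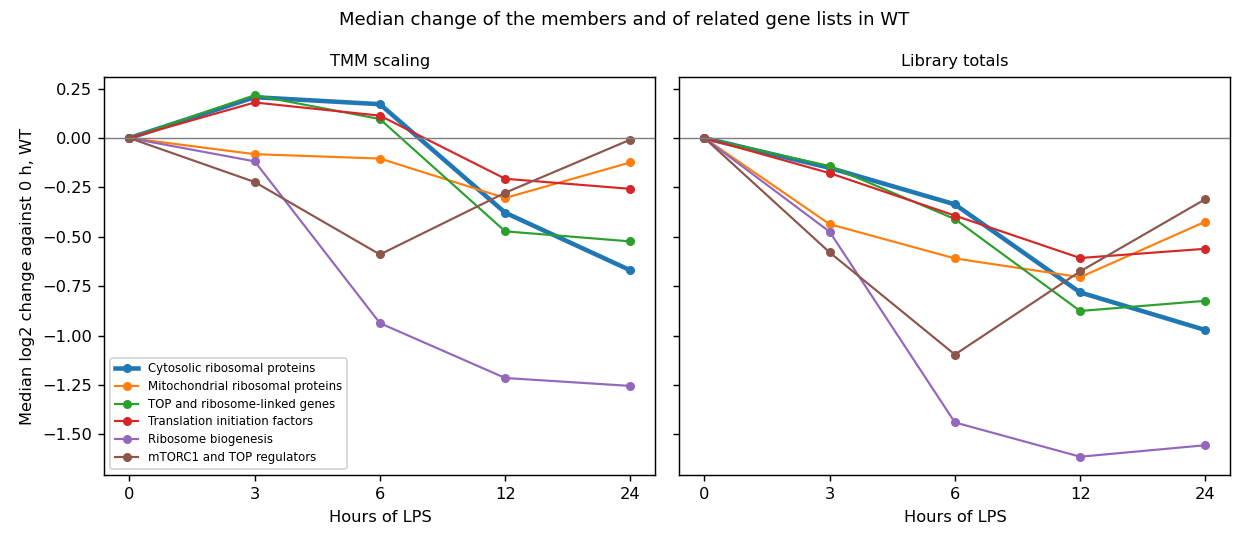
Median log2 change against 0 h in WT (y axis) by hours of LPS (x axis, 0 h set at 0) for the 85 members and 5 related lists, with TMM scaling on the left and library totals on the right. At 24 h by TMM the medians are -0.67 for the members, -1.26 for ribosome biogenesis and -0.12 for mitochondrial ribosomal proteins, and at 6 h the members lie above 0 on the left and below it on the right.

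Markers of dividing cells fell as well, at times that by TMM matched those of the members only in part. The 6 genes (Mki67, Top2a, Ccnb1, Cdk1, Aurkb and Birc5) summed to between 932 and 1233 scaled CPM in WT at 0 h. Their WT sums were between 755 and 1017 at 3 h and between 373 and 467 at 6 h. They were between 146 and 224 at 12 h and between 145 and 209 at 24 h. In every group 0 of 6 were near zero. In KO they summed to between 884 and 1113 at 0 h, between 345 and 420 at 6 h, between 124 and 178 at 12 h and between 162 and 226 at 24 h. At 6 h in WT these sums were thus already lower. At that time 42 of 85 members were called higher by TMM (31.0% of all genes) and 77 lower by library totals (63.9%). Between 6 and 12 h the sums fell without overlap in both genotypes. In that step 80 members fell in WT (23.4% of all genes) and 67 in KO (22.0%) by TMM. The 12 and 24 h ranges of the sums overlapped in both genotypes. In that step 61 members fell further in WT (20.5% of all genes) and 35 in KO (18.8%) by TMM. Markers of other cell types moved over the course as well. The 5 monocyte markers summed to between 57.0 and 68.2 in WT at 0 h, between 346 and 439 at 6 h and between 168 and 198 at 24 h, and in KO to between 44.0 and 62.9, 385 and 413, and 152 and 178. The 6 osteoclast markers (1 of 6 near zero) went from between 146 and 211 in WT at 0 h to between 55.1 and 92.6 at 24 h, and in KO from between 197 and 295 to between 95.4 and 126. The WT and KO ranges of the osteoclast markers overlapped at 0 h and did not overlap at 24 h. Over all 40 libraries the neutrophil markers summed to between 16.0 and 79.8 (3 of 9 near zero), highest in WT at 6 h. The stromal markers summed to between 0.327 and 6.24 (2 of 5 near zero), the dendritic cell markers to between 0.816 and 7.51 (0 of 4) and the red cell and platelet markers to at most 2.29 (1 of 5). The part of these markers in the changes of the ribosomal protein genes, over LPS and between KO and WT, was not tested.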

How the data were processed

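RNA 3′ ends were sequenced (QuantSeq 3′ FWD, per the labels' protocols) from 40 libraries, 4 in each of 10 groups. Gene-level expected counts came in a single table, and every value in it was a whole number as deposited by the authors. The submitters' processing notes name the build GRCm39 and, with no order or role, RSEM 1.3.3, cutadapt 3.7, FastQC 0.11.9, UMI-tools 1.1.2 and STAR 2.7.10a. Of 57010 identifiers, 52029 matched a symbol. The median library total was 4471933 counts. Replicates were compared in 60 pairs, and each pair differed beyond sampling noise.

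The fits used edgeR 4.0.16 in R 4.3.3 (TMM scaling, filterByExpr with a minimum count of 10, robust quasi-likelihood F-test), with Benjamini-Hochberg adjustment over all genes tested. LPS contrasts used the 20 libraries of a genotype, KO against WT the 8 libraries of a time, and the interaction 16 libraries. SE is the log2 change divided by the square root of F. Scaled CPM divides counts by the TMM-corrected total over all 40 libraries. Alternatives were RLE factors, library totals, TMM without the members, no filter, DESeq2 1.42.0, a fit of all 40 libraries, a replicate block and libraries left out. The scripts were tested on simulated data, with the changed genes drawn from all genes that passed the filter. A log2 change of 0.5 was called in 53.2% (WT, 6 h against 0 h), 53% (KO against WT, 3 h) and 16.7% (interaction, 6 h). For a change of 1 these were 81.9%, 91.7% and 72.9%. Of the genes called, 3.79%, 6.62% and 7.53% were false.

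Members and lists were chosen with earlier results of these data known, and the summed share is described with no test, although a permutation test of it had been planned. Named members were the anchors Rplp0, Rps6, Rpl3 and Rpsa, the copies with their parents, the 4 highest and 4 lowest in WT at 3 and 24 h, the 3 highest and 3 lowest KO differences at each time, and the 5 most and 3 least variable. Other named members were chosen after their values were seen. Some members that the rule selects are not reported here.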

Additional observations from a re-analysis of the deposited data

Results flagged for a closer look

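In groups of 4 libraries, a highest or lowest value was set apart when its gap to the nearest library took up most of the group's range (Dixon's test at 95%). Of 130 groups tested, 6 were set apart, and chance gives about 1 in 20. The summed share of KO 4 at 12 h was 3.55% of counts, with the nearest KO library at 2.78%. Rplp0 was at 556.6 scaled CPM in KO 1 at 0 h, with the nearest at 389.7, and Rpl14 at 347.8 in the same library, with the nearest at 225.9. Rpsa was at 257.8 in KO 4 at 6 h, with the nearest at 216.4. Rpl41 was at 856.6 in WT 3 at 6 h, with the nearest at 760.0. Rpl12 was lowest in KO 2 at 6 h, at 43.2, with the nearest at 50.3.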

How the results depend on the processing

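Scaling set the early direction and left the fall at 12 and 24 h. With library totals, 0 members were higher at 3 h in WT and in KO, 1 at 6 h in WT and 0 at 6 h in KO, 79 were lower at 12 h in KO and 21 between 12 and 24 h in KO, and 35 (WT) and 15 (KO) changed between 3 and 6 h. As a share of the TMM-scaled size, the log2 change of the summed share was 0.22, 0.24, -0.26 and -0.56 at 3, 6, 12 and 24 h in WT, 0.21, 0.27, -0.20 and -0.50 in KO, and KO lay 0.12 above WT at 6 h. Outside the 100 highest other genes it was -0.055, -0.16, -0.56 and -0.76 in WT and -0.17 at 6 h in KO. Members called higher by TMM had the opposite sign on library totals for Rpl24 at 24 h (WT -0.049, KO -0.0076), Rps24 at 3, 6, 12 and 24 h (WT -0.052, -0.041, -0.13 and -0.053, KO -0.099, -0.094, -0.18 and -0.043), Rps9 (WT -0.0062 at 3 h and -0.14 at 12 h, KO -0.15 at 12 h and -0.10 at 24 h) and Rps6 (WT -0.031 at 3 h and -0.20 at 6 h, KO -0.28 at 6 h). With no filter, 33 members were higher at 3 h in WT, 0 changed between 3 and 6 h in KO, and 2 and 3 differed between KO and WT at 3 and 24 h. In the fit of 40 libraries 31 were higher at 3 h in WT, 54 fell between 12 and 24 h in KO and 5 changed between 3 and 6 h in KO. DESeq2 and RLE factors each gave 4 (WT) and 2 (KO) between 3 and 6 h. Without KO 3 and WT 4, the replicates handled as male animals, 20 fell between 12 and 24 h in KO and 0 changed between 3 and 6 h in KO. The causes of these shifts were not tested. The mean CPM threshold at 5 gave 88 members and at 50 gave 84.

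Same-numbered libraries of a genotype had correlated deviations of -0.01 to 0.44 in WT (23 of 40 over 0.1) and -0.09 to 0.35 in KO (24 of 40), and each library was closest to its own number in 69 of 80 and 62 of 80 cases. The labels do not say that a number marks an animal, so the samples were not taken as paired. With a replicate block, 6 (WT) and 5 (KO) members changed between 3 and 6 h, and the other counts stayed within 1.5 times.

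Leaving out 1 replicate at a time gave these ranges. Members higher in WT numbered 28 to 50 at 3 h and 29 to 54 at 6 h, and lower 52 to 61 at 12 h and 72 to 79 at 24 h. In KO they were 2 to 15, 18 to 40, 19 to 59 and 59 to 74. Between 3 and 6 h, 6 and 12 h and 12 and 24 h, 1 to 3, 75 to 78 and 42 to 66 members were called in WT. Between 3 and 6 h, 6 and 12 h and 12 and 24 h, 0 to 1, 55 to 76 and 20 to 46 members were called in KO. The log2 change of the summed share in WT ranged over -0.16 to -0.11, -0.30 to -0.24, -0.69 to -0.65 and -0.91 to -0.83. The log2 change of the summed share in KO ranged over -0.18 to -0.04, -0.35 to -0.22, -0.73 to -0.55 and -0.88 to -0.72. KO minus WT ranged over -0.01 to 0.10, 0.01 to 0.08, 0.01 to 0.06, -0.02 to 0.12 and 0.03 to 0.19. KO against WT and the interaction gave 0 members each time.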
